A study of Mus musculus with 6 samples.

Results

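A set of 10 genes that encode the precursors of well-known neuropeptides was examined in the cerebellum of mouse pups whose dams received different amounts of folic acid (FA). The genes were *Avp*, *Oxt*, *Pomc*, *Agrp*, *Npy*, *Hcrt*, *Gal*, *Sst*, *Trh* and *Crh*, and every probe on the array that carries 1 of these 10 names and is not a control was taken, whatever its signal. This gave 11 probes of 55681 and 10 genes of 24105 with a symbol, since *Hcrt* has 2 probes and each other gene has 1. C57BL/6J females ate an amino acid based AIN-93G diet with FA at 2 mg/kg (2 mg FA group) or 20 mg/kg (20 mg FA group) from 1 week before mating to the end of pregnancy, so both groups were supplemented and no group lacked FA. At postnatal day 1 (P1), the cerebella of 3 pups of 1 sex, each from another dam, were pooled for the RNA of each array. For each sex there was 1 array at 2 mg FA and 2 arrays at 20 mg FA, and replicates 1 and 2 at 20 mg FA came from different extraction batches. The pool is the unit of replication, and at 2 mg FA no spread between pools could be measured. The sample titles name the cerebellum, whereas a tissue field of the labels names the whole brain.

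Neuropeptides are cut from larger precursor proteins, stored in dense-core vesicles and released to act on G protein-coupled receptors, often far from the site of release. Most of the genes studied here are best known from the hypothalamus, where *Avp* and *Oxt* are made by magnocellular neurons, *Agrp* and *Pomc* by opposing neurons of the arcuate nucleus, and *Hcrt* by neurons of the lateral hypothalamus. *Npy*, *Gal* and *Sst* are also made in many other parts of the brain, and *Crh* is known from the inferior olive, whose climbing fibres reach the cerebellum.

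The arrays were not equally bright, and 1 of them went partly against its label. The library labelled female 20 mg replicate 2, called the dim array in what follows, had 23.32% of all probes well above background by the image software, where the other 5 had 51.11% to 71.94%. On the dim array *Xist*, the RNA of the inactive X chromosome, had a processed signal of 8.178 and was not well above background, as on the male arrays, while it reached 1833 and 7935 on the other female arrays. The Y-linked *Ddx3y* was not well above background on any array labelled female and had signals of 427.5 to 3645 on the arrays labelled male. The Y-linked *Eif2s3y* had 46.5 on female 20 mg replicate 1 and 48.65 on the dim array, both well above background, against 885.7 to 9236 on the male arrays. These raw signals are not on one scale. The median processed signal of all probes was 161.55 on female 20 mg replicate 1 and 5.14 on the dim array. Relative to its array, the *Eif2s3y* signal was thus far higher on the dim array. The main female results are therefore given with and without the dim array. Both 2 mg FA arrays and female 20 mg replicate 1 shared slide 1, the dim array was on slide 2 together with male 20 mg replicate 1, and male 20 mg replicate 2 was on slide 3. In males, dose and slide cannot be told apart. Of the cerebellum markers, 22 of 23 were well above background on each array of slide 1, and 12 to 21 on the other arrays. Markers of the hypothalamus were detected as well, with 12 of 15 on the female 2 mg array, 12 on female 20 mg replicate 1, 7 on the male 2 mg array and 3 or 4 on the other arrays.

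The probe sequences of *Avp*, which differed most of the 10 genes between arrays of slide 1, and of *Npy*, whose signal was high on 5 arrays, are shown. Both probes are longer on the genome (mm9) than their own 60 bases, so each reads across an exon junction of the spliced RNA. The *Avp* probe lies on the minus strand between positions 130406552 and 130406817 of chromosome 2, and the *Npy* probe lies on the plus strand between 49773743 and 49777505 of chromosome 6.
Avp probe: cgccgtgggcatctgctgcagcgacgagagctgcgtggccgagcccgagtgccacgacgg
Npy probe: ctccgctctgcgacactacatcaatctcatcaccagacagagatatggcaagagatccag
*Avp* and *Oxt* are neighbours that face each other on chromosome 2. The *Oxt* probe covers positions 130402665 to 130402724 on the plus strand in mm9, 3827 bases lie between the 2 probes, and the RefSeq table (GRCm38.p6) lists 0 genes between them. Because these neighbours varied together across the arrays of slide 1, the 250 bases before the start of each are shown from RefSeq, in the direction of transcription. Capitals mark an E-box (CACGTG), the sequence that clock and other basic helix-loop-helix factors are known to bind.
Avp, GRCm38.p6 chr2:130582589-130582838, minus strand: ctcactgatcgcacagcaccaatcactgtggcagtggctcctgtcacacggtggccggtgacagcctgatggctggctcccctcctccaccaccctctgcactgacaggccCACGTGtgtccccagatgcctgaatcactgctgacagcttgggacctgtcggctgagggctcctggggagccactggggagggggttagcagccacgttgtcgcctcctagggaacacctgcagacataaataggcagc
Oxt, GRCm38.p6 chr2:130575919-130576168, plus strand: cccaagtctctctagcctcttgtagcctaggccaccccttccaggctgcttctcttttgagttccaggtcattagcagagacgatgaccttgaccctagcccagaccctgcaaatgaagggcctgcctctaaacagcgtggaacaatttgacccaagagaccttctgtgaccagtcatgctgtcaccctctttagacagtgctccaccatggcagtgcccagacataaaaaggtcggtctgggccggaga
The first letter of the *Avp* E-box lies 139 bases before the start, and 6.02% of all 32851 promoters in the table hold such a match within their window on either strand. No E-box was found in the *Oxt* window. Promoters were listed for 8 of the 10 genes. A TATAAA match was found for *Pomc* and *Hcrt*, 25 and 33 bases before the start, against 12.4% of all promoters. The cAMP response element TGACGTCA was found for *Sst*, 48 bases before the start, against 1.55% of all promoters. These matches are letters in a window and were not tied to any measured value.

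*Avp*, the precursor of the antidiuretic hormone vasopressin, gave the highest signal on the female 2 mg array. Its processed signal, the intensity after background subtraction, was 1424 there, 86.82 on female 20 mg replicate 1 and 11.71 on the dim array, which is female replicate 2. The male arrays gave 62.19 at 2 mg FA, then 62.85 (20 mg replicate 1) and 18.08 (20 mg replicate 2). The female 2 mg array thus stood above all others, and the *Avp* spot was not well above background on the dim array or on male 20 mg replicate 2. After quantile normalization, which gives all arrays the same distribution, the log2 level was 9.31 on the female 2 mg array and 6.44 ± 2.25 (SD, n = 2) at 20 mg FA. The difference of -2.86 (7.28-fold lower) exceeded the SD, but the values of the replicates, -4.45 and -1.27, differed widely. By limma the SE of this difference was 2.22, with an adjusted p = 1. In males the difference was 0.53, with 1.26 on replicate 1 and -0.19 on replicate 2, so the 2 mg array lay between the 20 mg arrays.

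*Oxt* encodes the precursor of oxytocin, the hormone of milk ejection and labour. Its processed signal was 634.3 on the female 2 mg array, 155.4 on female 20 mg replicate 1 and 3.863, not well above background, on the dim array. The male arrays gave 97.82 at 2 mg FA and 55.25 and 54.93 at 20 mg FA. Again the female 2 mg array was the highest, and the 4 arrays that remained well above background were close to each other after normalization, at 5.38 to 6.10 on the log2 scale against 8.21 on the female 2 mg array. In females the log2 difference was -3.75 (13.5-fold lower), with a mean of 4.45 ± 1.60 (SD, n = 2) at 20 mg FA. Both 20 mg arrays lay over 2.5-fold below the 2 mg array, by -2.62 and -4.89, and *Oxt* was the only 1 of the 10 genes for which this held. On the dim array, however, the normalized value was the floor of 10 (3.32 on the log2 scale), so the second difference is set by that floor. The limma SE was 2.02, with an adjusted p = 1. In males *Oxt* was higher by 0.64 at 20 mg FA, with 0.54 and 0.73 on the replicates, which was larger than their SD of 0.13 (n = 2). The female minus male dose difference of *Oxt* was -4.39 (SE 2.85, limma adjusted p = 1).

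**Figure D1:**
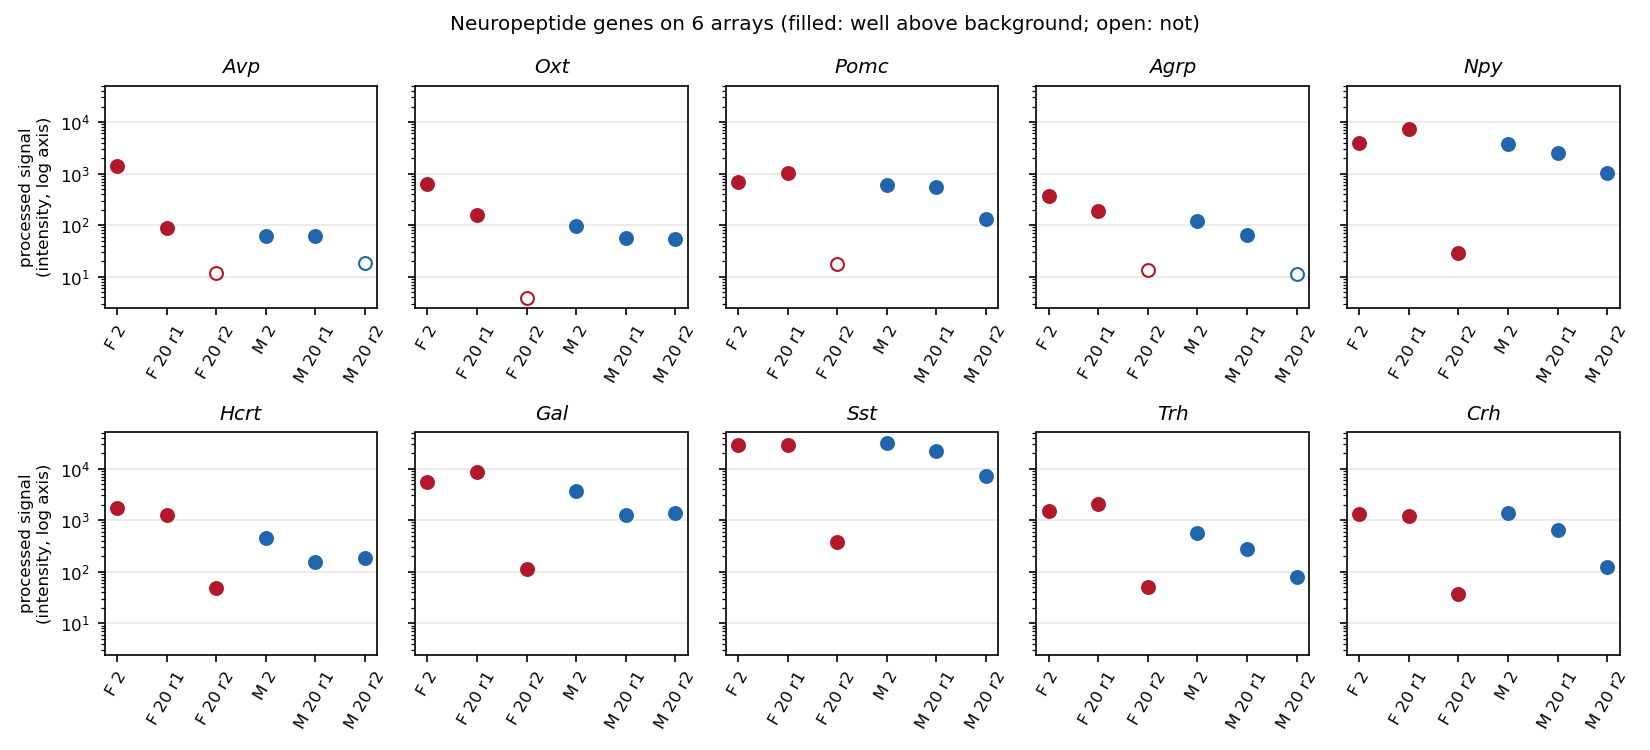
Processed signal (intensity, log axis) of the 10 neuropeptide genes on the 6 arrays, given by the brightest probe of each gene. F and M stand for female and male, 2 and 20 for the FA dose in mg/kg, r1 and r2 for the replicates, filled circles for spots well above background and open circles for the others. *Avp* is at 1424 on the female 2 mg array and at 86.82 or less on every other array, while the dim array (F 20 r2) is the lowest or nearly the lowest for each gene.

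*Agrp* and *Pomc* belong to arcuate neurons that raise and lower food intake, respectively. *Agrp*, which encodes an antagonist of the melanocortin receptors, was read on the minus strand of chromosome 8 at positions 108090600 to 108090659 (mm9). It had processed signals of 363.4 on the female 2 mg array, 188.7 on female 20 mg replicate 1, 119.9 on the male 2 mg array and 63.29 on male 20 mg replicate 1. On both replicates 2 (13.31 in females and 11.46 in males) it was not well above background. The female log2 difference of -0.40 (limma SE 2.20, adjusted p = 1) was the mean of -1.63 and 0.83 on arrays of opposite sign, the latter from a spot not well above background, and the male difference of -0.59 was the mean of 0.42 and -1.61. *Pomc*, the precursor of melanocyte-stimulating hormone, corticotropin and beta-endorphin, was more even. Its probe lies on the plus strand of chromosome 12 at 3960413 to 3960472 (mm9). *Pomc* had signals of 672.4, 1026 and 17.54 on the female 2 mg array and 20 mg replicates 1 and 2, and of 611.0, 543.6 and 132.5 on the male arrays in the same order. Its log2 dose differences were 0.08 in females and 0.12 in males, both smaller than the SD between the 20 mg arrays (0.53 and 0.76). The female value was the mean of -0.30 on replicate 1 and 0.45 on the dim array, where *Pomc* was not well above background.

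*Hcrt*, the precursor of the orexins that keep animals awake, was well above background on all 6 arrays with its brighter probe, which covers 100623007 to 100623066 on the minus strand of chromosome 11 (mm9). The processed signals were 1709, 1243 and 48.40 in females at 2 mg FA and on 20 mg replicates 1 and 2, and 452.1, 152.3 and 185.8 in males. Both female arrays of slide 1 lay above every male array. The log2 dose difference was -0.40 in females (-1.33 and 0.54 on the replicates) and 0.05 in males (-0.46 and 0.57), each smaller than its SD of 1.33 and 0.72. The other *Hcrt* probe, at 100622484 to 100622543, had signals of 4.937 to 115.9. It was well above background only on the male 2 mg array and male 20 mg replicate 2, and was therefore not a second reading of the female level. In males it did not repeat the brighter probe, with a log2 difference of -1.41. The replicates gave -2.27, from a spot not well above background, and -0.55.

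*Npy*, a peptide that stimulates feeding and is widespread in inhibitory neurons, gave processed signals of 3961, 7335 and 28.20 in females at 2 mg FA and on 20 mg replicates 1 and 2. The male signals were 3749, 2540 and 1015. After normalization the arrays were alike except for the dim one, at 10.49 to 10.84 on the log2 scale against 9.42. The female difference of -0.71 came from that array, with -0.06 on replicate 1 and -1.37 on replicate 2, and the male difference was 0.28 ± 0.10 (SD, n = 2). *Gal*, the precursor of galanin, was read at 3411143 to 3411202 on the minus strand of chromosome 19 (mm9). It had signals of 5513, 8717 and 110.3 in females and of 3618, 1255 and 1403 in males. Its differences were -0.24 in females, with -0.30 and -0.18 on the replicates, and 0.05 in males, with -0.79 and 0.89.

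*Sst*, *Trh* and *Crh* encode peptides named for the pituitary hormones they hold back or release. *Sst*, for somatostatin, is the 1 gene here with 10 spots on each array, of which 9 were usable on male 20 mg replicate 1. These spots read the minus strand of chromosome 16 at 23889776 to 23889835 (mm9). Averaged over its spots, the processed signal was 28710 at 2 mg FA, 28370 on 20 mg replicate 1 and 379.8 on the dim array in females, and 31890, 22100 and 7112 in males. The spots of 1 array differed by a coefficient of variation of 2.95% to 9.05%, which is error within an array and not between pools. On the female 2 mg array (27679.7 to 30651.6) and female 20 mg replicate 1 (26753.6 to 30267.5) the spots overlapped before normalization. In females *Sst* was lower by 2.01-fold at 20 mg FA, with log2 differences of -0.89 and -1.14 on the replicates and a mean level of 12.64 ± 0.18 (SD, n = 2) against 13.65. In males the difference was 0.41, with 0.69 and 0.14. By limma the female difference had an SE of 0.92 and an adjusted p = 1, and the female minus male difference was -1.43 (SE 1.31, adjusted p = 1).

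*Trh*, for thyrotropin-releasing hormone, had processed signals of 1509, 2041 and 51.09 in females and of 556.2, 280.5 and 77.01 in males, each in the order of 2 mg FA and 20 mg replicates 1 and 2. The probe lies at 92192061 to 92192120 on the minus strand of chromosome 6 (mm9). As for *Hcrt*, both female arrays of slide 1 lay above the male arrays. The log2 dose difference was 0.16 in females, with -0.47 and 0.79 on the replicates, and -0.59 in males, with -0.03 and -1.15. *Crh*, for corticotropin-releasing hormone, gave 1284, 1224 and 36.00 in females and 1386, 649.2 and 125.7 in males. Its probe covers 19593482 to 19593541 on the minus strand of chromosome 3 (mm9). The differences were -0.20 in females (-0.96 and 0.56) and -0.96 in males (-0.27 and -1.66), and neither exceeded the SD between the 20 mg arrays, which was 1.07 and 0.98.

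**Figure D2:**
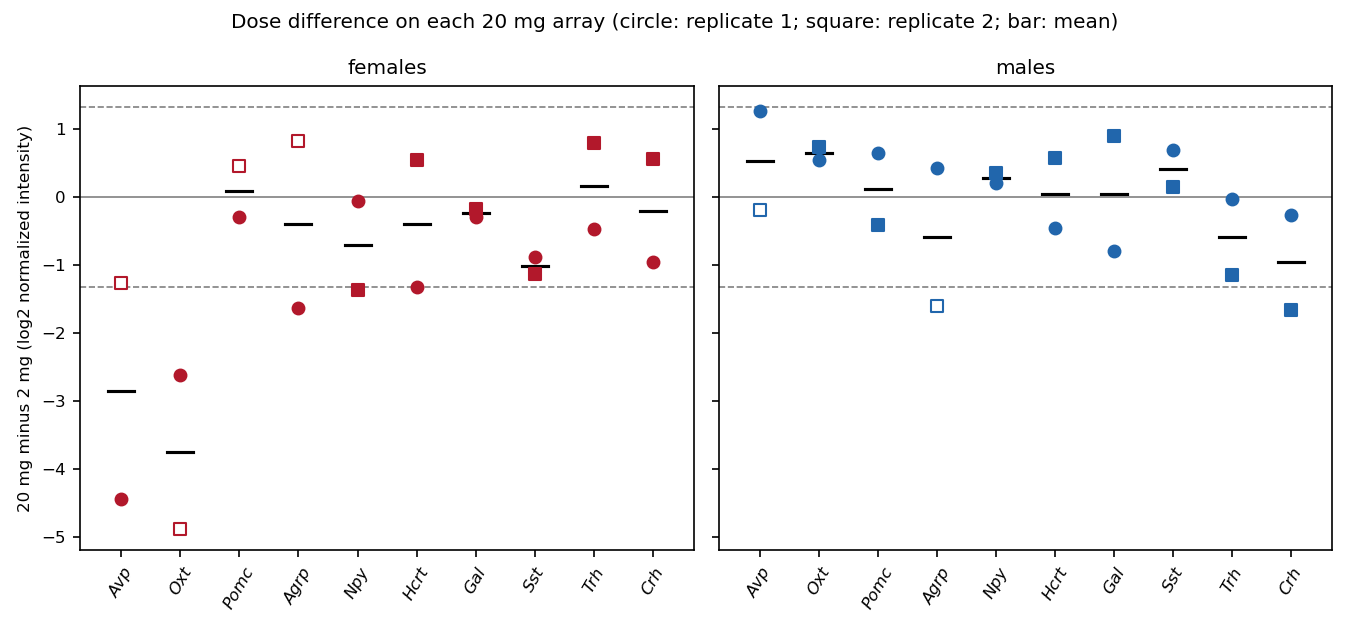
Log2 normalized intensity at 20 mg FA minus that at 2 mg FA for each gene, in females (left) and males (right). Circles are replicate 1, squares are replicate 2, open marks are spots not well above background, bars are the mean, and dashed lines mark 2.5-fold. *Oxt* in females is the only gene with both marks beyond a dashed line, at -2.62 and -4.89.

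By the rule of the study's methods, a gene counted as changed if it varied over the arrays and its mean at 20 mg FA lay at least 2.5-fold from the 2 mg array. In females 2 of the 10 neuropeptide genes, *Avp* and *Oxt*, were lower by this rule and 0 were higher, while 10.8% of all genes were lower and 6.16% higher. In males 0 of the 10 were called in either direction, against 1.64% of all genes lower and 0.892% higher. Of all genes, 1.04% lay over 2.5-fold below the 2 mg array on both female 20 mg arrays and 0.461% over 2.5-fold above it. The rule contains no test, and 2 of 10 is a small count against that background. Without the dim array, 4 of the 10 were lower in females (*Avp*, *Oxt*, *Agrp* and *Hcrt*), while the share of all genes was 1.76%, with 0 of the 10 and 1.59% of all genes higher. Without female 20 mg replicate 1 only *Oxt* was lower, against 14.3% of all genes. In males *Agrp* was lower when 20 mg replicate 1 was left out, against 2.88% of all genes, with 0 of the 10 and 2.7% of all genes higher.

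No neuropeptide gene passed the limma test (Benjamini-Hochberg adjusted p under 0.05) in females, in males, over both sexes or for the difference between the sexes. The test called 0 of 37251 probes in females and 0 of 37254 in males, which is 0% in each, with 161 and 74 probes at an unadjusted p under 0.05. For the 10 genes the adjusted p was 1 in each of these comparisons. Over these comparisons and the alternative settings, the lowest adjusted p of any of them was 0.584, for *Oxt* in females without replicate 1. The SE of the dose difference ranged from 0.92 for *Sst* to 2.22 for *Avp*. limma draws the spread of each gene toward that of all fitted probes of similar level, here with a weight of 19 degrees of freedom against 2 of its own. For *Sst* the SD between the 20 mg arrays was 0.18 in females and 0.39 in males. For *Avp* and *Oxt* in females, a difference of several fold could thus not be told from this shared spread between 20 mg arrays. That spread holds differences of slide, extraction batch and brightness as well as those between pools. The median dose difference of the 10 genes was -0.40 in females and 0.09 in males, against 0.00 over all genes in each sex. The difference was larger than the SD between the 20 mg arrays for 4 genes in females (*Avp*, *Oxt*, *Gal* and *Sst*) and for 3 in males (*Oxt*, *Npy* and *Sst*). Such an SD comes from a single pair of arrays and is often exceeded without any effect. The share of all genes was not counted, so these counts are a description only.

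Slide 1 allowed a comparison of arrays that were hybridized together, namely female 2 mg, female 20 mg replicate 1 and male 2 mg. They were normalized alone, all 10 genes were well above background on each, and with 1 array per group no test was possible. On this slide *Avp* was 28-fold lower on female 20 mg replicate 1 than on the female 2 mg array (log2 difference -4.81), *Oxt* was 7.19-fold lower, *Agrp* 3.38-fold and *Hcrt* 2.58-fold. These 4 of 10 genes stood against 2% of all genes lower and 1.64% higher by 2.5-fold. The other 6 genes differed by less, from -0.05 for *Npy* to -0.99 for *Crh*.

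The female 2 mg array was set against the male 2 mg array in the same way, a comparison added after the values had been seen. *Avp* was 29.4-fold higher on the female array (log2 difference 4.88), *Oxt* 8.47-fold, *Hcrt* 4.58-fold, *Agrp* 3.93-fold and *Trh* 3.28-fold. Thus 5 of 10 genes were higher by 2.5-fold, against 0.63% of all genes higher and 0.341% lower. Female 20 mg replicate 1 and the male 2 mg array, in contrast, differed by less than 2.5-fold for each of the 10 genes, from -0.87 for *Sst* to 1.24 for *Trh*, and for *Avp* by 0.07. Of all genes, 1.32% were lower and 1.24% higher by 2.5-fold in this comparison. The first and second comparisons share the female 2 mg array, so they are not independent of each other.

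**Figure D3:**
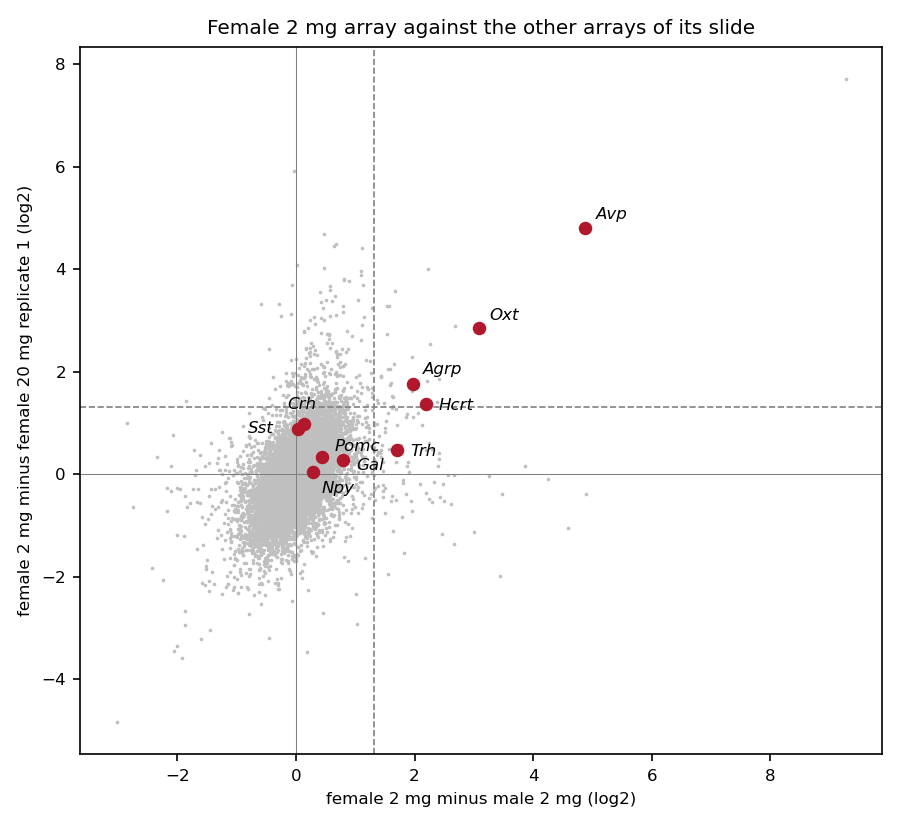
Log2 level on the female 2 mg array minus that on the male 2 mg array (horizontal) and minus that on female 20 mg replicate 1 (vertical), for the genes well above background on the 3 arrays of slide 1. Grey points are all genes, red points the 10 neuropeptide genes, and dashed lines mark 2.5-fold. *Avp*, *Oxt*, *Agrp* and *Hcrt* lie beyond both lines, and both axes share the female 2 mg array.

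All 10 genes were higher on the female 2 mg array than on each of the other arrays of slide 1, by any amount, as were 34.4% of all genes. By at least 2.5-fold it was 4 of 10, against 31 of 17617 genes (0.176%). Ordered by the smaller of the 2 differences, *Avp* ranked at 2, *Oxt* at 3, *Agrp* at 10 and *Hcrt* at 30 of the 17617 genes, and *Trh* followed at 751. The one gene above *Avp*, named after its values were seen, was *Lrrc42*. These ranks describe a single array and carry no measure of the spread between pools at 2 mg FA. On pooled tissue, fewer cells of a type and less RNA per cell cannot be told apart.

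Some markers of the hypothalamus other than the 10 genes were also highest on the female 2 mg array. Of the 6 markers well above background on the 3 arrays of slide 1, 0 were higher by 2.5-fold on the female 2 mg array than on both others. With dim spots included, 5 of 15 were higher and 0 lower, against 0.822% of all genes higher and 0.328% lower. The 5 were *Sim1*, *Nkx2-1*, *Fezf1*, *Six6* and *Kiss1*, each not well above background on at least 1 array of the slide. Others did not follow, since *Nr5a1* and *Six3* did not pass 2.5-fold against both and *Nkx2-4* (-0.33 from female 20 mg replicate 1 and -0.03 from male 2 mg) and *Gnrh1* (-1.12 and -0.38) lay lower on the female 2 mg array. *Nkx2-1*, a transcription factor that patterns the ventral hypothalamus, had a processed signal of 303.2 on the female 2 mg array, 88.03 on female 20 mg replicate 1 and 7.276, not well above background, on the male 2 mg array. *Sim1*, needed for the neurons that make *Avp* and *Oxt*, followed the same order with 165.2, 59.62 and 27.83. *Six6* was well above background on the female 2 mg array alone (189.5, against 6.288 and 7.714). *Pmch*, a peptide gene of the lateral hypothalamus like *Hcrt*, was high on both female arrays, with 3046 and 2366, and low on the male 2 mg array, with 29.42. *Otp*, a further factor of *Avp* and *Oxt* neurons, was not well above background on any array. The summed signal of the 15 markers was 7322 on the female 2 mg array, 6061 on female 20 mg replicate 1, 2685 on the male 2 mg array and 283.1 to 1237 on the others. The part of these markers in the *Avp* and *Oxt* results was not tested.

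**Figure D4:**
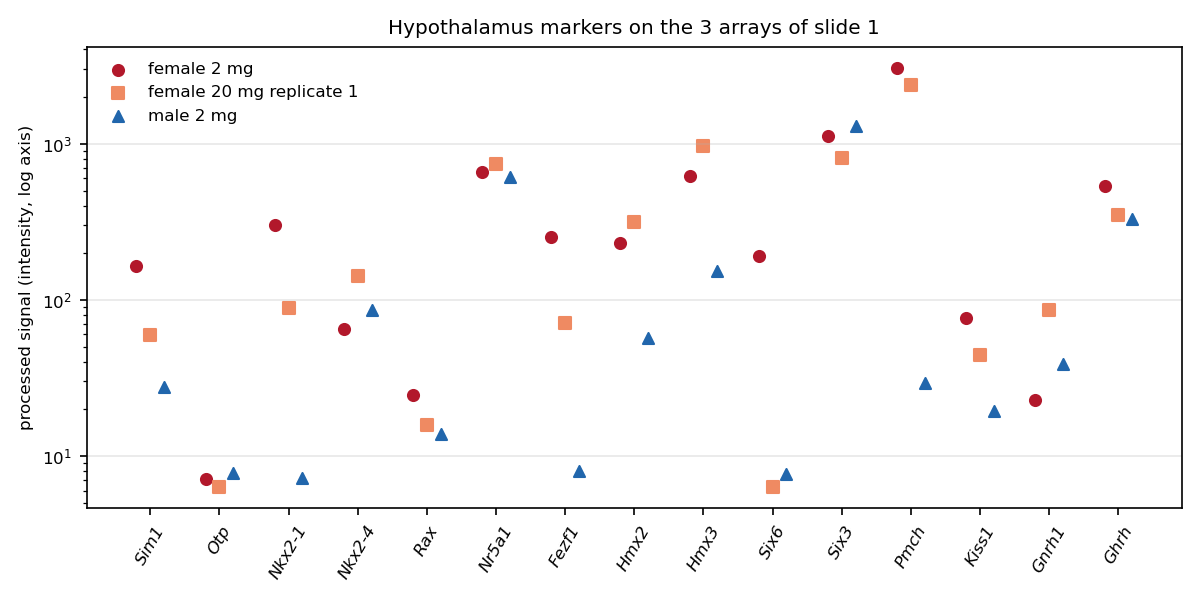
Processed signal (intensity, log axis) of 15 hypothalamus markers on the 3 arrays of slide 1. Circles are female 2 mg, squares female 20 mg replicate 1 and triangles male 2 mg. *Nkx2-1* is at 303.2, 88.03 and 7.276, whereas *Pmch* is high on both female arrays (3046 and 2366) and low on the male array (29.42).

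Other marker lists also differed between the arrays of slide 1. Of the choroid plexus markers 5 of 8 were lower by 2.5-fold on the female 2 mg array than on both others, against 0.119% of all genes well above background on the slide. Among them was *Ttr*, the thyroxine carrier of cerebrospinal fluid, which had a processed signal of 5253 where female 20 mg replicate 1 had 243100 and male 2 mg had 50900. The summed signal of the 8 markers was 13080, 279400 and 70610 on these 3 arrays, and 2449 to 49840 on the others. By the fold rule 4 of the 8 were higher and 0 lower in females at 20 mg FA, with a median log2 difference of 2.67. Of all genes 6.16% were higher and 10.8% lower. In males 0 of the 8 were called. Of the forebrain markers 0 of 12 were higher or lower on the female 2 mg array than on both others, but 6 of the 11 well above background on the slide were higher than on the male 2 mg array. Brainstem markers were mixed, with 1 of 14 lower on the female 2 mg array than on both others (*Tph2*, for serotonin synthesis) and 0 higher. Against the male 2 mg array alone, 5 of 14 brainstem markers were higher and 2 lower, and 2 of 22 cerebellum markers (*En2*, 3.08-fold, and *Barhl1*, 2.69-fold) were lower, where 0.63% of all genes were higher and 0.341% lower. None of the 23 cerebellum markers or the 7 red blood cell markers passed 2.5-fold against both other arrays, and of the 9 pituitary markers *Fshb* was higher (54.24 against 5.733 and 7.059). The defining pituitary hormones *Gh* and *Cga* were not well above background on any array. The part of these lists in the neuropeptide results was not tested.

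The receptors of the 10 peptides, with the *Crh* binding protein, made a list of 29 genes. They were well above background for 21 of 29 on the female 2 mg array, 25 on female 20 mg replicate 1, 24 on the male 2 mg array, 19 on each male 20 mg array and 6 on the dim array. By the fold rule 6 of 29 were lower and 1 higher in females (*Mc3r*, *Mc4r*, *Npy2r*, *Ppyr1*, *Sstr4* and *Crhbp* lower, *Avpr2* higher), where 10.8% of all genes were lower and 6.16% higher, and 0 were called in males. *Avpr2* was not well above background on any female array. The median dose difference of the list was -0.40 in females and 0.03 in males, and 0 passed the limma test in either sex. None of the 6 lower genes was above 4.741 in processed signal on the dim array, and *Mc4r*, the receptor through which *Agrp* and *Pomc* peptides act on food intake, differed by -0.12 on replicate 1 and by -4.05 on replicate 2. *Ppyr1*, a receptor of the *Npy* family, was the only one past 2.5-fold on both, at -1.43 and -3.79. For *Mc4r* and *Ppyr1* the value of replicate 2 is set by the floor, from spots not well above background.

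On slide 1, 0 of the 29 receptor genes were higher by 2.5-fold on the female 2 mg array than on both others, against 0.822% of all genes. *Oxtr*, the oxytocin receptor, had processed signals of 854.7 and 1283 on female 2 mg and female 20 mg replicate 1 and of 953.6 on male 2 mg. *Avpr1a*, the main vasopressin receptor of the brain, had 192.8, 430.2 and 121.5 in that order. *Avpr1b* was not well above background on any array, and *Avpr2*, the kidney receptor, was so on the male 2 mg array alone. *Hcrtr1* gave 1708, 2819 and 1810, and *Hcrtr2* was well above background on 2 of the 6 arrays. For melanocortins, *Mc3r* gave 370.1, 394.4 and 361.3, *Mc5r* was detected on 5 arrays, *Mc2r* on 1 and *Mc1r* on none. *Npy1r* gave 1576, 4016 and 1298, *Npy5r* was detected on 4 arrays and *Npy6r* on none. Of the galanin receptors *Galr1* was detected on 4 arrays, *Galr2* on 1 and *Galr3* on 2. *Sstr5* gave 18270, 17280 and 16150, *Sstr3* was also detected on all 6 arrays, and *Sstr1*, *Sstr2* and *Sstr4* on 5. *Crhr1* and *Crhr2* were detected on all 6, with 1701, 3897 and 2212 for *Crhr1*, while *Trhr* was detected on 5 and *Trhr2* on 4. A receptor signal and a peptide signal come from different probes and were not set against each other.

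Genes that cut, amidate and store the precursors were nearly all well above background, with 17 of 17 on each array of slide 1 and 12 on the dim array. In females 3 of 17 were lower by the fold rule (*Pam*, *Cadps2* and *Trhde*) and in males 0, with medians of -0.29 and 0.07, against 10.8% and 1.64% of all genes lower. *Cadps2* (-0.37 on replicate 1 and -6.02 on the dim array) and *Trhde* (-0.17 and -2.92) passed through the dim array alone. *Pam*, which amidates the end of vasopressin, oxytocin and many other peptides, was lower on both female 20 mg arrays, by -1.33 and -3.36, from signals of 349.2, 230.1 and 4.618. The last signal, on the dim array, was not well above background, so the second difference is not a reliable repeat of the first. *Pcsk1n*, which inhibits a precursor-cutting enzyme, was 1.74 higher in males, with 1.58 and 1.90 on the replicates, but did not pass the filter on variation. None passed the limma test, and 0 of 17 were higher or lower by 2.5-fold on the female 2 mg array than on both others of slide 1.

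Among 34 precursors of other neuropeptides, 3 were lower (*Vip*, *Galp* and *Nppc*) and 1 higher (*Ucn3*) in females by the fold rule and 0 in males, with medians of -0.13 and 0.07. Over all genes 10.8% were lower and 6.16% higher in females. All 4 passed through the dim array alone, with differences of -0.53 to 0.39 on replicate 1. None passed the limma test. *Nts*, for neurotensin, was higher on both female 20 mg arrays, by 1.54 and 1.46, with signals of 2692 at 2 mg FA and 14360 and 182.9 at 20 mg FA, but did not pass the filter on variation. On slide 1, with dim spots included, only *Kiss1* (1 of 34) was over 2.5-fold higher on the female 2 mg array than on both others, against 0.822% of all genes. Its signals were 76.88, 44.08 and 19.53, the last, on male 2 mg, not well above background. Of the 26 precursors well above background on the 3 arrays, 0 were higher than on both, against 0.176% of all genes. Against the male 2 mg array alone, 4 of the 26 well above background on the slide were higher by 2.5-fold and 0 lower. These were *Calcb* (4.88-fold), *Nms* (3.51-fold), *Tac2* (3.23-fold) and *Gcg* (2.63-fold), where 0.63% of all genes were higher and 0.341% lower. For *Tac1*, the precursor of substance P, the log2 difference of the female 2 mg array was -0.04 from female 20 mg replicate 1 and 0.47 from male 2 mg. For *Penk*, the precursor of enkephalins, it was 0.20 and 0.74.

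For each neuropeptide gene well above background on at least 5 arrays, the other genes with the most similar normalized pattern over the 6 arrays were looked up among 14920 genes. The highest Pearson correlations were 0.974 for *Oxt* (with *Hhatl*), 0.996 for *Pomc* (*Epha6*), 0.997 for *Npy* (*Cyp2d26* and *Gak*) and 0.966 for *Hcrt* (*Apol9b*). They were 0.939 for *Gal* (*C630001G18Rik*), 0.984 for *Sst* (*Ube2m*), 0.993 for *Trh* (*Kcnj16*) and 0.996 for *Crh* (*Galt*). Next came *Ttyh3*, *Ubxn2b*, *Fam189a1*, *Gpbar1*, *Armcx3*, *3110047P20Rik* and *Itga4* for *Oxt*, *Pomc*, *Hcrt*, *Gal*, *Sst*, *Trh* and *Crh*. With 6 arrays that share a dim member and so many genes searched, these values are a description only.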

How the data were processed

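RNA of the 6 pools was measured on single-colour Agilent arrays with positions in mm9. The authors made the deposited intensities with Agilent Feature Extraction 10.7.3.1, which subtracts background and flags spots well above it, without scaling between arrays. The authors' deposited log2 table, quantile normalized with a floor set in BRB-ArrayTools, served as an alternative. Its medians were 5.23 to 6.49, and whether its floor preceded normalization is not stated. From the scanner files, outlier spots were dropped, processed signals were averaged per probe, logged to base 2 (log2), quantile normalized across the 6 arrays and raised to 10. A gene was given by its brightest probe. The fold rule kept probes with a variation p at or under 0.05 (chi-square against the median variance) and at most 50% missing values, and needed 2.5-fold. limma 3.58.1 (R 4.3.3) was fitted with a trend to 4 groups of sex and dose, on probes well above background on at least 2 arrays, with 2 residual degrees of freedom, so that each lone 2 mg array is assumed to vary like the 20 mg arrays. The fit was tested on simulated data. The number of arrays limits the precision. The 10 genes and all lists (receptors, processing genes, other precursors, hypothalamus, pituitary, cerebellum, brainstem, forebrain, choroid plexus and red blood cell markers) were chosen from general knowledge with earlier results of these data known, and every one of the 10 was named whatever its values. The receptors were all named, and of the processing genes and other precursors those past 2.5-fold on both 20 mg arrays of a sex. The marker lists held further such genes, not all of which were named. Examples are *Slc6a2* in females (-3.05 and -4.66) and *Slc6a4* (-1.61 and -2.78) and *Lhx6* (1.43 and 2.83) in males. Promoters came from RefSeq (GRCm38.p6). The alternatives tried were scaling by the 75th percentile, a floor set first, normexp with an offset of 50, the authors' table, no filter, slide as a block, slide 1 alone, the mean of a gene's probes, and each 20 mg array left out.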

Additional observations from a re-analysis of the deposited data

Results flagged for a closer look

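For 3 of the 10 genes the 20 mg arrays of the sexes lay on opposite sides of their 2 mg array, lower on both in females and higher on both in males. The share of all genes with this pattern was not counted. *Npy* was among the 3 with a difference of only -0.06 on female replicate 1, and in males dose and slide cannot be told apart. The female minus male dose difference was -4.39 for *Oxt* (SE 2.85), -0.99 for *Npy* (SE 1.69) and -1.43 for *Sst* (SE 1.31) on the log2 scale, each with a limma adjusted p of 1. The difference between the sexes was thus not shown for any of them. On the array labelled female 20 mg replicate 2, *Oxt* was not well above background. No group held enough arrays for a check of outlying samples.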

How the results depend on the processing

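Of 192 dose differences of the 10 genes recomputed under the alternatives, 186 moved by less than the spread between replicates, 6 moved by more and 0 reversed a called direction. This count is no measure of stability, because many outcomes were fixed in advance. Leaving out 1 replicate of a pair moves the mean by less than the SD of that pair, apart from the new normalization. Leaving out an array of the other sex changes the normalization alone, and the setting without a filter uses the same values. In females *Avp* ranged from -4.86 to -1.26 and *Oxt* from -4.48 to -2.07, whereas *Agrp* ranged from -1.80 to 0.81 and *Hcrt* from -1.37 to 0.54 and changed sign. The number of the 10 lower by the fold rule in females was 2, became 1 (*Avp*) with the 75th percentile shift, where *Oxt* did not pass the filter on variation and 0.506% of all genes were lower, and lay between 1 and 4 with a 20 mg array left out. In males it was 0, and between 0 and 1 with an array left out. The 75th percentile shift moved the median of all genes in females from 0.00 to 0.70 on the log2 scale and left it at 0.00 in males. Relative to that median *Avp* and *Oxt* were still lower in females, at -3.08 and -2.29 before subtracting it. limma called 0 probes in each comparison as reported. In females it called 3 with the 75th percentile shift, 3 with normexp and 0 to 6 with an array left out. In males it called 1 in the authors' table and 0 to 1 with an array left out, over both sexes 1 with slide as a block and 0 to 11 with an array left out, and for the difference between the sexes 0 to 2 with an array left out. None of the 10 genes was among these calls, and the cause of the changes was not tested. With slide as a block the *Avp* dose difference was -3.82 (SE 2.19). Only slide 1 held both doses, and its 1 array at 20 mg FA was female. This fit, counted above under both sexes, thus held no male pair of doses on the same slide. No paired analysis was possible because the 2 mg arrays carry no replicate number, so the doses share fewer than 2 numbers. The dim array sets a low limit, since 4 of the 10 genes were not well above background on it.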
